A study of Homo sapiens with 2 samples.

Results

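Genes of the splicing machinery were followed in HEK293T cells that expressed the homeobox transcription factor IRX1. The members were chosen by name, with earlier results of these data known. They were the probe sets whose single platform symbol starts with SRSF (the SR proteins), HNRNP (the heterogeneous nuclear ribonucleoproteins, hnRNPs) or SF3 (subunits of the U2 small nuclear ribonucleoprotein), together with the kinases CLK1 to CLK4, SRPK1 and SRPK2 and the genes U2AF1, U2AF2, TRA2A, TRA2B, PTBP1, PTBP2, PNISR, LUC7L, LUC7L2, LUC7L3, SRRM1 and SRRM2. This gave 201 of 54675 probe sets, for 58 of 19775 named genes. Of the 58, 56 encode proteins, and the others are the pseudogene HNRNPA3P1 and HNRNPD-DT, a long noncoding RNA transcribed divergently from HNRNPD. A further 22 probe sets carry several symbols, one of which fits the names, and were left out, so that SRSF2, SRSF9 and HNRNPH2 were not analysed here.

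HEK293T derives from human embryonic kidney and carries the SV40 large T antigen. Cells received pcDNA3.1-IRX1::GFP or, as the control, pcDNA3.1-GFP by transient transfection with polyethylenimine. RNA was taken 48 h later from cells sorted for GFP, and 1 HG-U133 Plus 2.0 array per condition was analysed here. A legend of the study gives triplicates, and whether an array is 1 of these or a pool was not settled, so no error between cultures and no p-value can be given. Both conditions share the cell line, the vector backbone, GFP and the sort.

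Splicing removes introns from pre-mRNA. SR proteins bind exons through RNA recognition motifs and recruit the spliceosome through tails rich in arginine and serine, while many hnRNPs bind exons or introns and oppose this, so that the balance of both groups sets which exons are kept. CLK kinases in the nucleus and SRPK kinases, largely in the cytoplasm, phosphorylate the tails of SR proteins. U2AF marks the end of the intron and SF3A and SF3B hold the U2 particle on the branch point. Many SR protein and hnRNP genes limit their own messages through exons that send the RNA to nonsense-mediated decay.

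Values are MAS5 signals, linear intensities already scaled array by array. The median signal was 195 with IRX1::GFP and 171 in the GFP control. A log2 ratio is that of IRX1::GFP over GFP control, and each gene is given by its brightest probe set, that with the highest mean signal. Genes whose mean reached 183, the 50th percentile of all probe sets, were kept. Higher or lower means a difference of 2-fold or more where this is stated, and the other differences are given as values. Probe sets of the same gene had log2 ratios with an SD of 0.49 over 5930 genes, which says nothing of the spread of cultures. Background, taken as the 90th percentile over 107 probe sets of olfactory receptors, was 179 with IRX1::GFP and 143 in the GFP control. Among markers of this cell line, VIM, KRT8, KRT18 and LIN28B were above background on both arrays and PAX2 was not in the GFP control. LIN28B read 1436 with IRX1::GFP and 8740 in the GFP control, and KRT18 4480 and 2046. Of markers of other cell types, PTPRC was below background on both arrays, ALB was below it with IRX1::GFP, at 135, and above it in the GFP control, at 219, and COL1A1 read 2571 with IRX1::GFP and 631 in the GFP control. PECAM1 read 203 and 178, also above background on both arrays. The part of these markers in the results was not tested. As a sign of RNA quality, ACTB control signal near the 3-prime end divided by that near the 5-prime end was 1.64 with IRX1::GFP and 3.23 in the GFP control. For GAPDH it was 1.01 and 1.22. The log2 ratios of the control probe sets of ACTB and GAPDH ran from 0.21 to 1.24, with a median of 0.44. Neither the part of RNA quality nor that of these control values in the results was tested. In sorted bulk cells, fewer cells with a transcript and less of it per cell cannot be told apart.

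The promoters of 3 members are shown because the results turn on them. PNISR and SRSF8 were the members at least 2-fold lower with IRX1::GFP, and SF3B6 belongs to the SF3 genes, most of which had ratios above 0. The windows run from 250 bases before to 50 after the start in RefSeq GRCh38.p14, at chr6:99425259-99425558 on the minus strand for PNISR, chr11:95066627-95066926 on the plus strand for SRSF8 and chr2:24076277-24076576 on the minus strand for SF3B6. Capitals mark CCGGAAG, a core recognised by ETS transcription factors, on either strand in PNISR and SF3B6, and GAANNTTC, a pair of heat shock element units, in SRSF8.
PNISR: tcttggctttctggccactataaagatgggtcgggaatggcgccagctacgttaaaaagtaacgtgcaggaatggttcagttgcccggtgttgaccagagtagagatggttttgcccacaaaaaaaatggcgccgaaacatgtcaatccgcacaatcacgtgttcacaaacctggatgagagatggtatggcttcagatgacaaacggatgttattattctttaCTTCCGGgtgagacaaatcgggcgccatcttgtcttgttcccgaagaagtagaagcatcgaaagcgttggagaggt
SRSF8: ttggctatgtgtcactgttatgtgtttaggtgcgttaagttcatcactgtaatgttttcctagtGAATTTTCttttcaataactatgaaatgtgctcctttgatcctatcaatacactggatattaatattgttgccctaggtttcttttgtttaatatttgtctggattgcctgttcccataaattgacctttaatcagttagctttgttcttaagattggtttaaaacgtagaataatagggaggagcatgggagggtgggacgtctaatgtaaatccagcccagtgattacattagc
SF3B6: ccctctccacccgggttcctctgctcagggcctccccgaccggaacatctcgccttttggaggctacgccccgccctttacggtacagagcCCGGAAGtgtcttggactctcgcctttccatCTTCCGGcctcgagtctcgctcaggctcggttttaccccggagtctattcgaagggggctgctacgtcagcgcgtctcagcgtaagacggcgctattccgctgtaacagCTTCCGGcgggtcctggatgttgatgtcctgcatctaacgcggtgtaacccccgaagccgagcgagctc

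PNISR and SRSF8 are poorer in G and C than most members. The share of G and C was 47.3% for PNISR, 36% for SRSF8 and 62% for SF3B6, against a median of 65% over the 54 members with a window and 58.7% over all 35116 windows. A window was found for 54 of the 58 members, and not for SF3B3, TRA2A, HNRNPA3P1 and HNRNPA1. The ETS core was present in 14 of the 54, or 25.9%, and in 10.3% of all windows. It was in 6 of 8 SF3 windows, 3 times in that of SF3B6. By direction, it was in 8 of the 20 members with a ratio above 0 and in 6 of the 34 with one below 0. The 8 above 0 were the same 6 SF3 genes, SRSF5 and U2AF2, so this split largely repeats the SF3 count. The heat shock pair was in 3 of the 54 members, or 5.56%, namely SRSF8, HNRNPC and HNRNPA2B1, and in 6.77% of all windows. ACANNTGT, the palindrome that the Iroquois protein Mirror binds in Drosophila, was in 1 of the 54, SF3B5, or 1.85%, and in 5.62% of all windows. The motifs were chosen with the values known and read on both strands, and these matches describe letters in a window, not sites.

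Of 58 member genes, 57 passed the filter, 2 were at least 2-fold lower with IRX1::GFP and none was at least 2-fold higher. Over all 12193 genes that passed, 5.34% were 2-fold or more lower and 10.4% were 2-fold or more higher. Most member ratios were small and below 0. Of the 57 members, 36 had a log2 ratio below 0, or 63.2%, against 45.9% of all genes, and their median was -0.26, against 0.07 over all genes. Members are bright, and bright genes differed less between the arrays. At the 75th percentile filter 36 of 55 members were below 0, against 51.8% of 7678 genes, of which 6.68% were past 2-fold upward and 5.41% downward. At a mean signal of 10000 or more, a level chosen after the values were seen, 21 of 34 members were below 0, against 45.4% of 1195 genes, of which 3.51% were past 2-fold upward and 2.68% downward. None of those 34 members was past 2-fold, and their median was -0.16, against 0.05 over the 1195 genes.

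**Figure D1:**
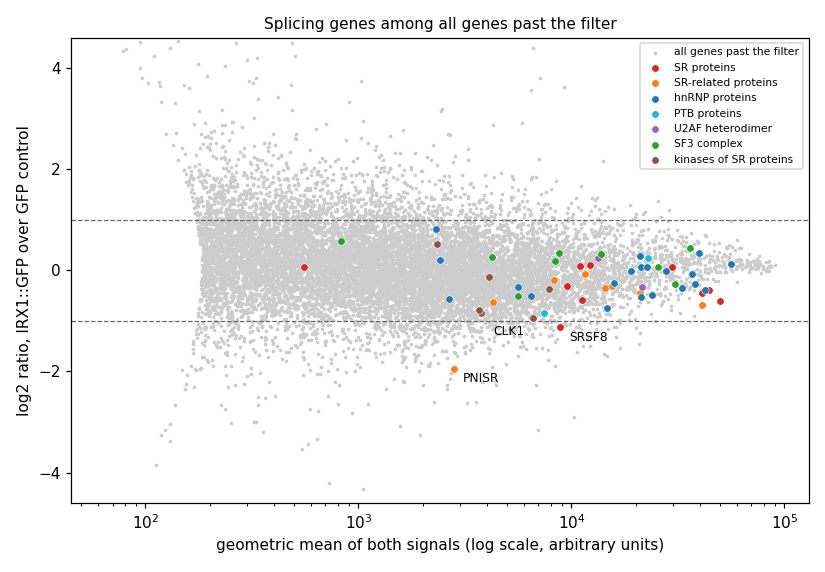
Each grey point is 1 of 12193 genes past the filter, plotted by the geometric mean of both signals (x, log axis) against the log2 ratio, IRX1::GFP over GFP control (y), and 15 genes lie beyond the y axis. The 57 splicing genes are coloured by role, dashed lines mark 2-fold, and PNISR and SRSF8 alone among them lie below the lower line.

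Among the SR proteins, SRSF8 was the single gene past 2-fold. SRSF8, an SR protein encoded by an intronless copy of SRSF2, read 6005 with IRX1::GFP and 13088 in the GFP control on its brightest probe set, 2.18-fold lower. A second probe set read 1835 with IRX1::GFP and 4792 in the GFP control, 2.61-fold lower, and another 1233 and 2609, 2.12-fold lower. The fourth read 699 with IRX1::GFP and 561 in the GFP control, within 2-fold and in the opposite direction. The brightest carries the suffix for probes shared with other transcripts, so signal from near-identical copies may be included.

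SRSF11, which binds pre-mRNA as an SR-related factor of U2AF, had all 4 probe sets below 0 but by unequal amounts. Its brightest read 40341 with IRX1::GFP and 61781 in the GFP control, 1.53-fold lower. The next read 4955 and 10088, 2.04-fold lower, another 2979 and 4459, 1.5-fold lower, and the dimmest 688 and 3076, 4.47-fold lower. The 2 probe sets past 2-fold were thus the second brightest and the dimmest. SRSF10, a splicing repressor when it loses its phosphates after heat shock, had 5 of 5 probe sets below 0, with log2 ratios of -0.69 to -0.34, and the brightest read 9131 with IRX1::GFP and 13674 in the GFP control.

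SRSF1, the founding member of the family, read 38617 with IRX1::GFP and 50357 in the GFP control, and 7 of its 8 probe sets were below 0, from -0.78 to 0.25 on the log2 scale. SRSF3, the smallest SR protein, read 35087 and 47895, and 5 of its 6 probe sets were below 0. SRSF4 read 8556 and 10559, with 3 of 4 probe sets below 0. These genes were all within 2-fold on their brightest probe set.

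Other SR genes had ratios near 0. SRSF5 read 12718 with IRX1::GFP and 11795 in the GFP control, and SRSF6 11321 and 10714. SRSF7, which binds RNA through an added zinc knuckle, read 30480 and 28948 on its brightest probe set, while its other 3 were below 0, the lowest at 6502 and 12171, a log2 ratio of -0.90. SRSF12 read 568 and 546 on the brighter probe set and 311 and 639 on the dimmer one, 2.06-fold lower. Of 10 SR genes, 1 was at least 2-fold lower and none higher, 6 were below 0, and their median log2 ratio was -0.34. The whole set of 12193 genes had 5.34% 2-fold or more lower, 10.4% 2-fold or more higher and 45.9% below 0. The number of SR genes below 0 was 9 after median centring and 8 after quantile normalization, as the 4 above 0 were all within 0.11 of it on the log2 scale. The share of all genes below 0 rose as well, to 52.3% after median centring and 48.4% after quantile normalization.

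On brightest probe sets, PNISR had the largest difference of the 57 members past the filter. It encodes a serine- and arginine-rich nuclear speckle protein that binds pinin. With IRX1::GFP its 5 probe sets past the filter read 1427, 1282, 911, 773 and 708. In the GFP control the same 5 read 5494, 4542, 4058, 2857 and 2566. The probe sets were 3.85-fold, 3.54-fold, 4.45-fold, 3.69-fold and 3.62-fold lower, so that they differed from each other by only 0.33 on the log2 scale. A sixth probe set read 20.4 with IRX1::GFP and 96.2 in the GFP control, both below background. Of 32 members with 3 or more probe sets past the filter, PNISR was the single one with all of them at least 2-fold lower, a pattern found in 1.11% of 2711 such genes.

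All 8 SR-related genes were below 0 with IRX1::GFP on the brightest probe set, with a median log2 ratio of -0.39, and 1 of them, PNISR, was past 2-fold. The shares over all 12193 genes past the filter were 45.9% below 0, 5.34% 2-fold or more lower and 10.4% 2-fold or more higher. When each gene was averaged over its probe sets, 6 of the 8 SR-related genes were below 0, against 44.6% of all genes. TRA2A, at 0.40, and SRRM2, at 0.10, were then above 0. TRA2B, which activates exons through GAA-rich enhancers, read 32538 with IRX1::GFP and 52135 in the GFP control, 1.6-fold lower, and all 4 of its probe sets were below 0. LUC7L2 read 3461 and 5348, 1.55-fold lower. LUC7L3 read 18050 and 24488, with 6 of 6 probe sets below 0 and 1 of them, at 434 and 889, past 2-fold. LUC7L2 and LUC7L3, like LUC7L, are relatives of a yeast U1 particle protein that helps choose the start of the intron. LUC7L itself read 11335 and 11847.

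The probe sets of TRA2A and SRRM2 disagreed. The brightest of TRA2A, a paralogue of TRA2B, read 12670 with IRX1::GFP and 16132 in the GFP control, while 2 dimmer ones ran the other way, at 1830 and 1253 and at 1183 and 589, the last 2.01-fold higher. SRRM2, a scaffold of nuclear speckles, read 7753 and 8861 on its brightest probe set and 8380 and 4548 on another, 1.84-fold higher. SRRM1, a splicing coactivator, read 13880 and 17184.

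**Figure D2:**
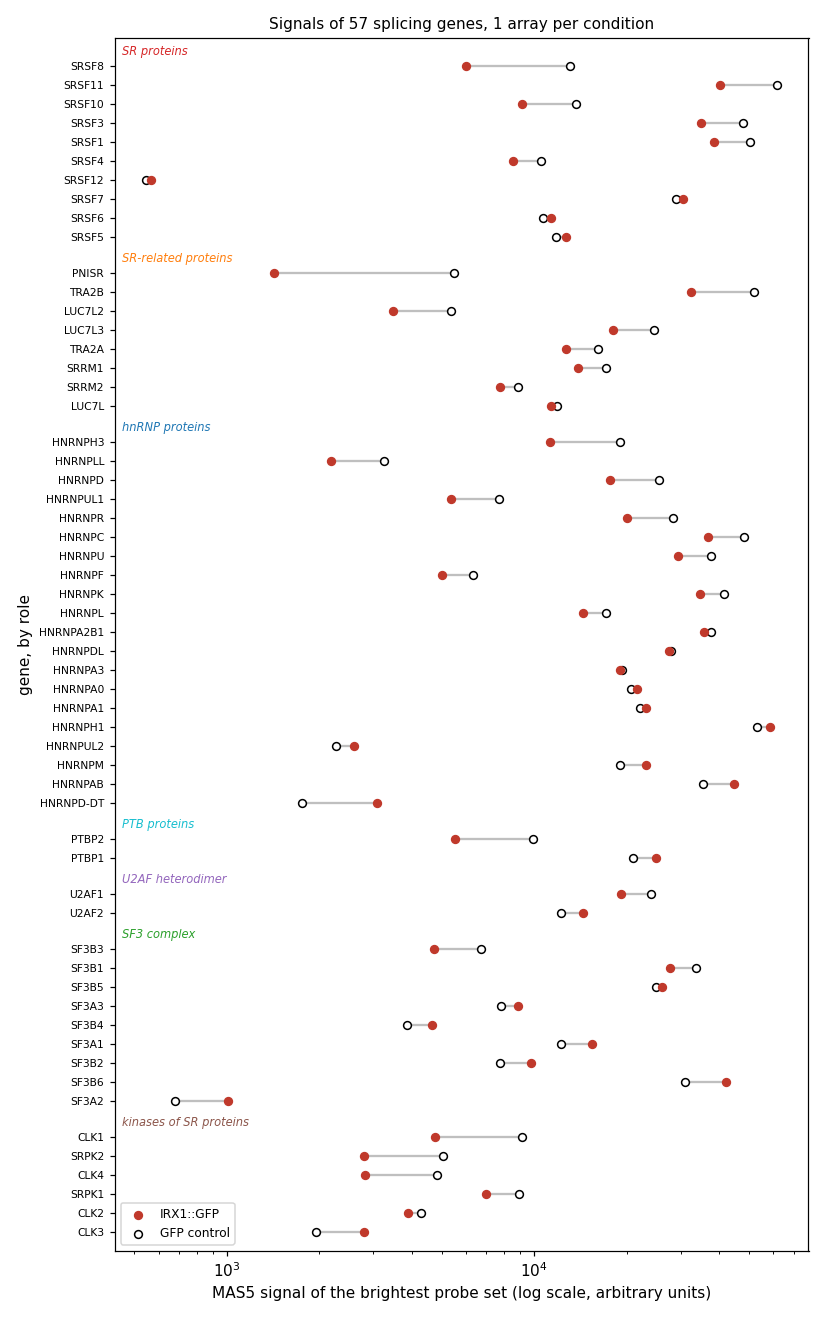
Points show the MAS5 signal of the brightest probe set (x, log axis) of 57 splicing genes in 7 roles (y), red for IRX1::GFP and open for the GFP control, 1 array per condition. PNISR, at 1427 with IRX1::GFP and 5494 in the GFP control, has the widest gap, and SF3 genes mostly have the red point to the right.

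None of the 20 hnRNP genes past the filter was 2-fold different on its brightest probe set, and 13 of the 20 were below 0. Among all 12193 genes past the filter, 5.34% were 2-fold or more lower, 10.4% were 2-fold or more higher and 45.9% were below 0. The median log2 ratio was -0.16 over the 20 hnRNP genes and -0.25 among the 19 that encode proteins. The lowest was HNRNPH3, of the family that binds runs of G, with 11305 with IRX1::GFP and 18997 in the GFP control, 1.68-fold lower, and log2 ratios of -0.86 to -0.61 over 4 probe sets. HNRNPD, also known as AUF1 for its binding to AU-rich elements, read 17716 and 25569, and all 6 of its probe sets past the filter were below 0. HNRNPD-DT on the opposite side of its promoter read 3086 with IRX1::GFP and 1750 in the GFP control, 1.76-fold higher, the highest ratio of any member. HNRNPR read 20114 and 28385, and HNRNPUL1 5384 and 7662.

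HNRNPLL, a regulator of CD45 splicing in lymphocytes, read 2176 with IRX1::GFP and 3236 in the GFP control on its brightest probe set. Its dimmer probe sets read 409 and 1377, 3.37-fold lower, 249 and 549, 2.21-fold lower, and 218 and 257. All 4 were thus below 0, and 2 were past 2-fold. HNRNPC, which binds runs of U, read 36743 and 48411 on its brightest probe set, and 5 of 6 were below 0. The sixth, at 489 with IRX1::GFP and 179 in the GFP control, was 2.74-fold higher.

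Other abundant hnRNPs were within 2-fold on every probe set past the filter. HNRNPA1, which represses exons and has many processed copies in the genome, read 23193 with IRX1::GFP and 22052 in the GFP control. HNRNPA2B1 read 35833 and 37718 on its brightest probe set and 15396 and 22031, 1.43-fold lower, on the next. HNRNPA3 read 18992 and 19265 on its brightest and 8756 and 5338, 1.64-fold higher, on another. HNRNPH1 read 58585 and 53389 on its brightest and 4158 and 2318, 1.79-fold higher, on another. The brightest probe sets of these genes were thus closer to 0 than a dimmer one of each. HNRNPK, a binder of runs of C, read 34636 and 41508, and HNRNPU, a nuclear scaffold protein, 29361 and 37556. HNRNPM read 23082 and 19050 and HNRNPAB 44750 and 35392, both above 0. HNRNPA3P1 did not pass the filter, with both signals below background.

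PTBP1 and PTBP2 lay on opposite sides of 0, both within 2-fold. PTBP2, the paralogue typical of neurons, whose message PTBP1 is known to limit through exon skipping, read 5541 with IRX1::GFP and 9901 in the GFP control, 1.79-fold lower, and its second probe set read 498 and 784. PTBP1, the polypyrimidine tract binding repressor, read 24895 and 20980, 1.19-fold higher. The subunits of U2AF were also within 2-fold and on opposite sides of 0. U2AF1, which contacts the AG at the end of the intron, read 19141 with IRX1::GFP and 24068 in the GFP control, with 3 of 3 probe sets below 0. U2AF2, which binds the polypyrimidine tract, read 14443 and 12216, with both probe sets above 0.

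The SF3 genes lay on the other side of 0 from most members. Of 9, 7 were above 0 with IRX1::GFP and none was 2-fold different, and their median log2 ratio was 0.27, against 0.07 over all genes. Being above 0 was also the more common side over all genes past the filter, with 6600 of 12193. Of these 12193, 5.34% were 2-fold or more lower and 10.4% 2-fold or more higher. SF3B6, the subunit next to the branch point adenosine, read 42113 with IRX1::GFP and 31113 in the GFP control, 1.35-fold higher. SF3B2 read 9781 and 7738, and SF3A1 15390 and 12255. SF3A2 read 1009 and 677, 1.49-fold higher, and its second probe set 316 and 66.9, at least 2.21-fold higher, as the GFP control signal was below background, but 1.74-fold under a floor on dim signals at the 50th percentile. The genes below 0 were SF3B1, the subunit mutated in myelodysplastic syndromes, at 27802 and 33747, and SF3B3, at 4722 and 6725. The median stayed above 0 under median centring, at 0.16 with 6 of 9 above 0, at 0.29 after quantile normalization, also with 6 of 9, and at 0.32 after loess with 7 of 9. The difference between the SF3 genes and other members was not tested, since 1 array per condition gives no error for it.

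Of the 6 kinases, 5 were below 0 and none was 2-fold different. For all 12193 genes past the filter, 45.9% were below 0, 5.34% were 2-fold or more lower and 10.4% 2-fold or more higher. CLK1 read 4760 with IRX1::GFP and 9152 in the GFP control on its single probe set, 1.92-fold lower, just inside the limit. Its log2 ratio of -0.94 went past 2-fold after median centring, at -1.05. It stayed within 2-fold after quantile normalization, at -0.90, and after loess, at -0.91. CLK4, the closest relative of CLK1, read 2806 and 4817, 1.72-fold lower, then 2021 and 2576, while a dim probe set read 285 and 237. CLK2 read 3894 and 4283. CLK3 ran the other way, at 2795 and 1952, 1.43-fold higher. SRPK2 read 2799 with IRX1::GFP and 5037 in the GFP control, 1.8-fold lower, and all 5 of its probe sets past the filter were below 0, up to -0.05. SRPK1 read 6951 and 8937 on the brighter probe set and 813 and 636 on the dimmer one. The median of the 6 kinases was -0.57, against -0.21 when each gene was averaged over its probe sets.

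**Figure D3:**
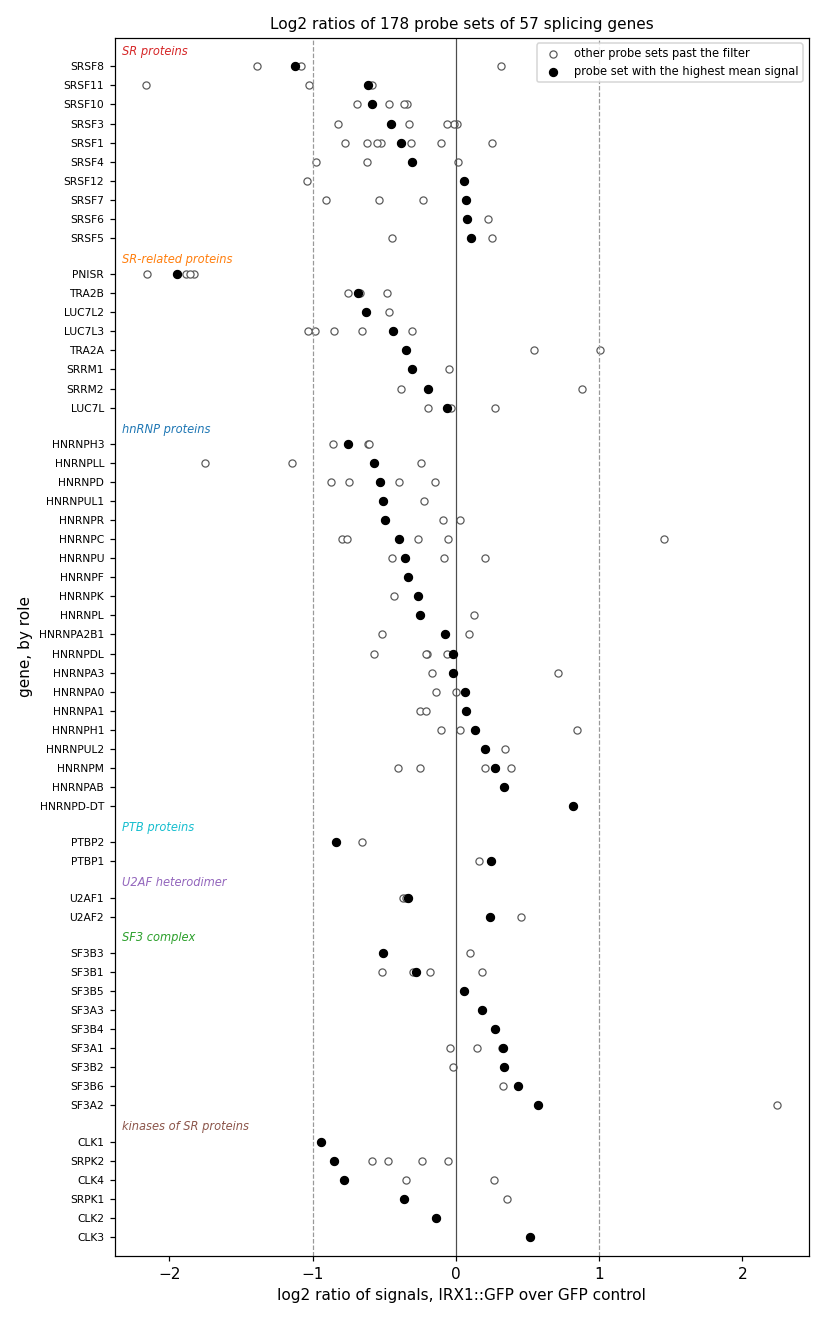
Each point gives the log2 ratio, IRX1::GFP over GFP control (x), for 1 of 178 probe sets past the filter, by gene and role (y), filled for the brightest of each gene, with dashed lines at 2-fold. The 5 probe sets of PNISR lie together between -2.16 and -1.82, while those of HNRNPC, SRSF8 and SF3A2 lie far apart.

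Counted by probe set, 178 of 201 passed the filter, 14 were at least 2-fold lower with IRX1::GFP and 3 at least 2-fold higher. Among all 22639 probe sets with 1 gene past the filter, 6.02% were 2-fold or more lower and 9.15% were 2-fold or more higher. Below 0 were 124 of the 178, against 48.8% of all. Of the 14, PNISR gave 5, SRSF8 3, SRSF11 and HNRNPLL 2 each, and LUC7L3 and SRSF12 1 each. The 3 higher ones belonged to HNRNPC, TRA2A and SF3A2. Of 48 members with 2 or more probe sets past the filter, 16 had all of them below 0 and 6 all above 0. The same counts were not made over all genes, so these are a description only. In 10 of the 48 the probe sets spanned 1 or more on the log2 scale, or 2-fold, as in 19.5% of 5930 genes. The 10 were SRSF1, SRSF8, SRSF11, SRSF12, TRA2A, SRRM2, HNRNPLL, HNRNPC, SF3A2 and CLK4. The median log2 ratio was -0.25 over 77 probe sets ending in _at, -0.27 over 68 ending in _s_at and -0.24 over 29 ending in _x_at, while 10 of the 77, 2 of the 68 and 2 of the 29 were at least 2-fold lower. PNISR alone gave 5 of the 10 lower probe sets ending in _at, and shares over all genes were not computed by suffix. With only _at probe sets, the median of the 8 SR genes left was -0.73.

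Across 54 members the log2 ratio had a Spearman rho of -0.40 with the length of the gene on the genome in RefSeq and of 0.27 with the G and C share of the promoter window. These points share 2 arrays and are not independent, so both values, the only ones of this kind computed and chosen with the results known, are a description.

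Other splicing genes were counted in 4 lists, of whose 121 genes 109 passed the filter. The lists were chosen with earlier results of these data known, so their counts are a description. Over all 12193 genes past the filter, 5.34% were 2-fold or more lower, 10.4% were 2-fold or more higher and 45.9% were below 0. Of 25 genes of small nuclear ribonucleoprotein and LSM proteins past the filter, none was 2-fold different, 11 were below 0 and the median log2 ratio was 0.07. LSM2 read 8370 with IRX1::GFP and 5054 in the GFP control, and SNRPD3 25251 and 16715. SNRNP27 read 3940 and 5351, and LSM8 6985 and 9412 on its brightest probe set, while its 3 dimmer ones had log2 ratios of -1.10, -1.07 and -0.99. Of 29 genes of spliceosome assembly and catalysis, 1 was lower, 1 was higher and the median was 0.05. PRPF39, a U1 particle protein, read 6490 with IRX1::GFP and 13254 in the GFP control, 2.04-fold lower. XAB2 read 340 and 115, at least 2.37-fold higher against background, but 1.86-fold under the floor on dim signals, where no gene of the list was 2-fold higher. DHX15, a helicase that takes spliceosomes apart, read 10215 and 16265, and SYF2 7039 and 4349.

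Of 46 other splicing regulators, 6 were at least 2-fold lower and none higher, and 38 of the 46 were below 0, with a median log2 ratio of -0.43. Over all 12193 genes, 5.34% were 2-fold lower, 10.4% 2-fold higher and 45.9% below 0. As this list was chosen with earlier results of these data known, its shares are a description and were not tested against these. MBNL2 and MBNL1 encode muscleblind proteins, which bind YGCY-like motifs and steer splicing in differentiation. MBNL2 read 321 with IRX1::GFP and 2014 in the GFP control, 6.28-fold lower, and MBNL1 1278 and 5649, 4.42-fold lower with all 5 probe sets past 2-fold. QKI read 9961 and 22179, with 5 of 8 probe sets at least 2-fold lower and 1 of 8 above 0, at 0.66. RBM39, a U2AF-related coactivator, read 13430 and 29731, 2.21-fold lower, with 1 of 4 probe sets past 2-fold and all 4 below 0. SREK1 read 5621 and 11383 and RSRC2 17428 and 34913, both just past 2-fold, on 1 of 5 and 1 of 2 probe sets, and 3 of 5 and 2 of 2 were below 0. The highest were KHSRP, at 30494 and 19866, and CDK13, at 16865 and 12016, whose 3 dimmer probe sets were all below 0. After loess or quantile normalization 5 of the 46 were at least 2-fold lower, and as the mean over probe sets 2.

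Of 9 genes of the exon junction complex and nonsense-mediated decay past the filter, SMG8 was higher, at 20406 with IRX1::GFP and 7561 in the GFP control, 2.7-fold, and none was lower. Of these 9, 7 were below 0, with a median of -0.17. Over all 12193 genes, 10.4% were 2-fold or more higher, 5.34% were 2-fold or more lower and 45.9% were below 0. SMG6, the endonuclease of the pathway, read 299 and 480, SMG5 2132 and 2687, and EIF4A3, the core helicase of the exon junction complex, 30469 and 21755.

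**Figure D4:**
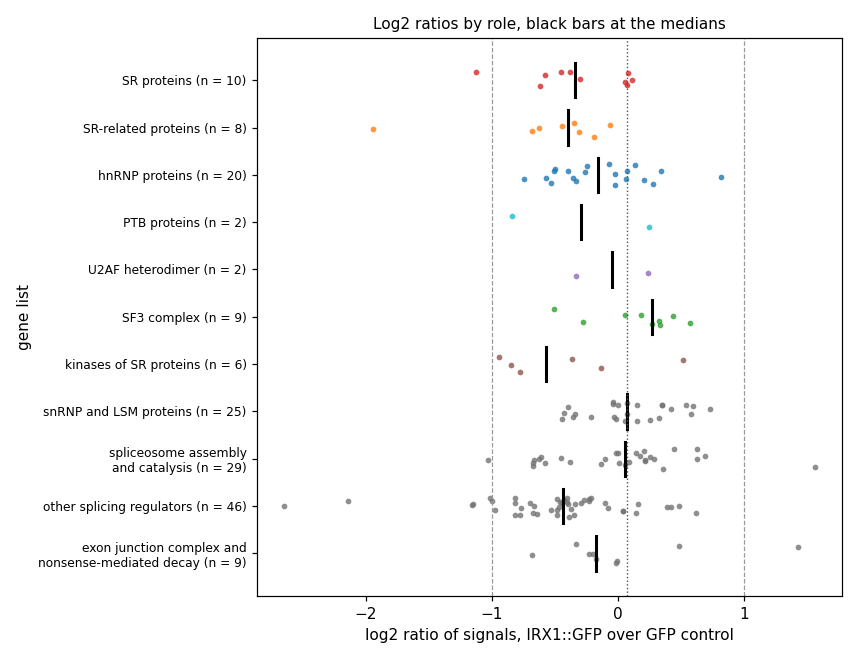
Points give log2 ratios, IRX1::GFP over GFP control (x), for genes past the filter in 7 roles of the members and 4 lists of other splicing genes (y), black bars their medians, dashed lines 2-fold and the dotted line the median of all genes, 0.07. The medians of the kinases, -0.57, and the other splicing regulators, -0.43, lie farthest left and that of the SF3 genes, 0.27, farthest right.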

How the data were processed

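Each deposited value is a linear intensity that the authors computed with MAS5, the tool listed in the submitters' notes. The version and the scaling target were not given in the sources used here. Both arrays had the same mean, 1000, after the lowest and highest 2% were left out. Names came from GEO's platform annotation. Among 54675 probe sets, 41097 had 1 symbol, 1801 several and 11777 none here. Symbols were updated by gene identifier in RefSeq GRCh38.p14, in which all 201 member probe sets were found.

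Log2 ratios, counts at 2-fold and medians were computed per gene on its brightest probe set. With 1 array per condition nothing was tested, and precision is limited by the number of arrays. A fold with 1 signal below background is a lower bound against the background level. The members, lists and alternatives were chosen with earlier results of these data known. Named members are those past 2-fold, those whose probe sets span 2-fold, the 2 brightest of each role, all kinases, U2AF and PTB genes, and others of a role chosen after their values were seen. Named genes of the other lists are the 2 highest and 2 lowest of each, and the other genes past 2-fold. The steps were tested on simulated data. Scripts ran in Python 3.11.15 with pandas 2.3.3, numpy 2.4.6, statsmodels 0.14.6 for loess, matplotlib 3.10.9 for plots and scipy 1.17.1.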

Additional observations from a re-analysis of the deposited data

How the results depend on the processing

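No member was at least 2-fold higher and PNISR and SRSF8 were at least 2-fold lower under quantile normalization, loess of span 0.3, a filter at the 75th percentile and a floor on dim signals. Median centring added CLK1, and no filter added HNRNPA3P1, whose signals were below background. The median log2 ratio of members stayed below 0 in all settings run, at -0.37 after median centring. Centring lowers every gene by the same amount, and the median over all genes went from 0.07 to -0.03. As the mean over probe sets, 1 member, SF3A2, was higher, and PNISR and SRSF11 were lower while the log2 ratio of SRSF8 was -0.82, within 2-fold. With only _at probe sets 4 of 38 members were lower, HNRNPLL and SRSF11 among them. Counted by probe set, 3 were higher and 14 lower. With a mean signal of 10000 or more, added after the values were seen, 0 members were lower and the median was -0.16, since neither PNISR nor SRSF8 is so bright. Among named members, the mean over probe sets also turned TRA2A to a log2 ratio of 0.40, SRRM2 to 0.10 and SRSF12 to -0.49, and gave -0.29 for CLK4.

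No paired analysis was possible because IRX1::GFP and GFP control are single arrays, which also leaves no replicate to omit. Compression of differences at the brightest signals was not tested.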

Other observations

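The 22 probe sets that carry several symbols, one of which fits the names used here, all passed the filter. None was 2-fold different with IRX1::GFP. Their log2 ratios ran from -0.55 to 0.64 with a median of 0.04, and 10 of the 22 were below 0. They belong to no count above.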
